A study of Mus musculus with 4 samples.

Results

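The 28 cell types described here are the glutamatergic types that few spots held, among the 67 cell types the authors scored on sagittal sections of mouse brain. They were taken by name: of 47 types whose column began with Glutamatergic, 19 named types were left out and the remaining 28 kept. A spot, which is a small region of tissue that can hold several cells, was counted as holding a type when its deposited fraction of that type was above 0. At least 1 of the 28 types was held by 1509 of 14809 spots.

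There was 1 section for each of 4 groups, with 4156 spots in the resilient, 3733 in the control, 3477 in the ketamine-treated susceptible and 3443 in the susceptible group. All mice were wild type C57. Chronic social defeat stress is a procedure of repeated defeat by an aggressor, and a social interaction test sorted the defeated mice into resilient and susceptible. The treated mouse received ketamine intraperitoneally at 10 mg/kg and its brain was taken 7 days later, and the other mice received saline. The labels do not state age or sex, or how the control mouse was handled. With 1 section per group there is no replicate, so no test was run: intervals are exact Clopper-Pearson 95% intervals of a share of spots, cover counting error only, and treat neighbouring spots as independent, which they are not. Differences between mice, sections and cutting planes cannot be told apart from differences between groups.

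Glutamatergic neurons are the excitatory neurons of the cortex and hippocampal formation. Their types are named by layer and by the target of the axon: intratelencephalic (IT) cells project within the forebrain, pyramidal-tract (PT) cells to brainstem and spinal cord, corticothalamic (CT) cells to thalamus, near-projecting (NP) cells only locally, and layer 6b (L6b) cells lie at the border with the white matter. The remaining letters name a region in the usual taxonomy of these cells: CTX for cortex, TPE for temporal association, perirhinal and ectorhinal areas, RSP and ACA for retrosplenial and anterior cingulate cortex, ENTl and ENTm for lateral and medial entorhinal cortex, SUB and ProS for subiculum and prosubiculum, PAR for parasubiculum, PPP for the post-, pre- and parasubiculum, HATA for the hippocampo-amygdalar transition area, APr for the area prostriata and RHP for the retrohippocampal region. The names are the authors' own, and since gene counts were not analysed here they could not be set against marker genes.

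All 28 types were found, 24 of them in every section. The number of spots per type over the 4 sections ran from 3 to 195, with a median of 30.5, against a median of 460 for the 19 other glutamatergic types. The label sparse did not separate the lists fully, since 4 of the 19 other types (CA1_ProS, CT_SUB, CA2_IG_FC and CA3) were held by fewer spots than the most frequent of the 28. The 7 most frequent types, L3_RSP_ACA, L6_IT_CTX, L6b_CT_ENT, L5_PPP, V3d, NP_PPP and L6b_RHP, made up 61.3% of the 1592 instances of a type in a spot. The 28 types together made up 10.4% of all instances of a glutamatergic type.

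Where a sparse type was present, it usually took a minor share of the spot. The median kept share was 31.0% of the spot, against 35.8% for the other glutamatergic types. A sparse type had the highest share of its spot in 28.9% of instances (460 of 1592), against 41.6% for the other glutamatergic types, and was the whole spot in 92 instances. A minor share was not particular to sparse types. The other types led between 22.4% (L4_5_IT_TPE_ENT) and 78.4% (DG) of their spots. The most frequent of them, L5_PT_RSP_ACA, led 27.7%, with a median share of 31.0%. The sparse types also differed among themselves in how often they led. L6_IT_CTX led 48.1% of its 185 spots, with a median share of 38.6%, while L5_6_IT_CTX led 8% of its 25 spots and V3d led 12.2% of its 115 spots. Only 1.82% of instances were below 15% of the spot, so most lay clear of the smallest deposited fraction, which was between 10.1% and 11.2% in every section. Spots with a sparse type held 2.90 types on average, and spots with a named type but no sparse one held 2.19. Choosing spots by a type they hold favours spots with many types, so this gap was not particular to sparse types. For single types among the other glutamatergic ones, the mean ran from 1.80 (DG) to 3.10 (CT_SUB). It was 2.92 for the most frequent of them, L5_PT_RSP_ACA. Most of the 1509 spots held a single sparse type (1429 spots), and 80 held at least 2.

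By section, at least 1 sparse type was held by 11.9% of resilient spots (496 spots, 95% interval 10.96 to 13.0) and 9.80% of control spots (366 spots, 8.87 to 10.8). It was held by 9.53% of susceptible spots (328 spots, 8.57 to 10.6) and 9.17% of spots after ketamine (319 spots, 8.24 to 10.2). The resilient section was the highest, and its interval did not overlap with that of any other section. The other 3 intervals overlapped with each other. The summed mean share of the 28 types was 4.37%, 3.95%, 3.91% and 3.61% in the same order. It amounted to 10.1%, 9.97%, 8.58% and 7.82% of the whole glutamatergic share. The resilient section also kept the most types per spot, a mean of 2.31 with unknown spots counted as 0, against 2.22 (control), 2.14 (ketamine-treated) and 2.06 (susceptible). With an equal mix of spots by number of types kept, the resilient section was at 11.3%, the susceptible at 10.7%, the control at 9.93% and the ketamine-treated section at 9.75%, so the resilient section was still the highest but the susceptible section came close to it.

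**Figure D1:**
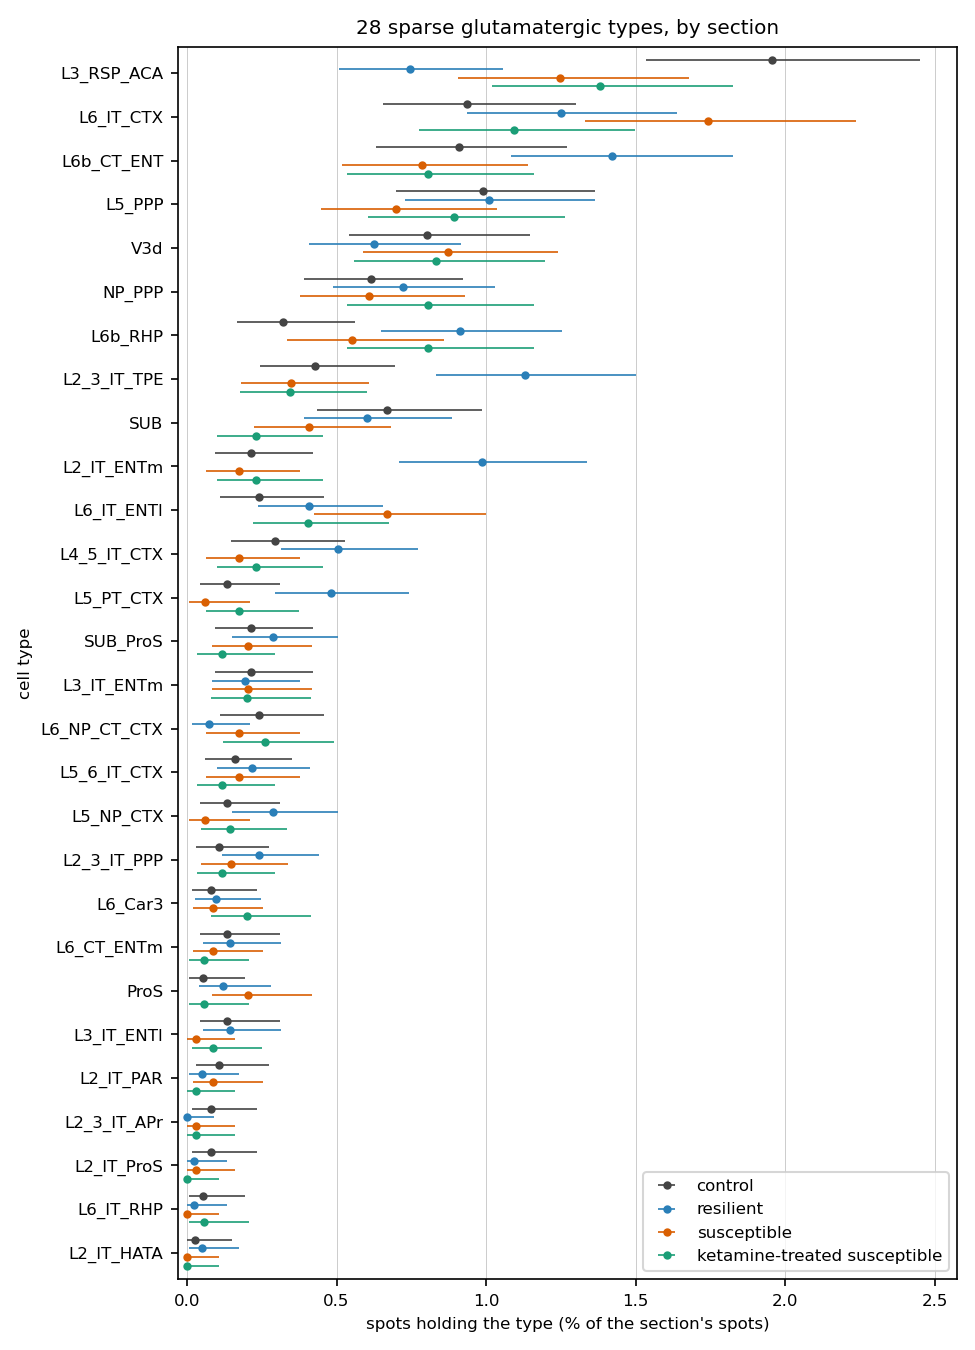
Share of spots holding each of the 28 sparse glutamatergic types (x axis, % of the section's spots) by section; points are the shares and bars exact Clopper-Pearson 95% intervals, 1 section per group. L2_3_IT_TPE and L2_IT_ENTm stand apart in the resilient section, at 1.13% and 0.987% of spots, and L3_RSP_ACA is highest in the control section, at 1.96%.

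The 28 types were spread unevenly over the 17 deposited clusters, which are groups of spots numbered by the authors and taken here as 1 clustering of all sections, although no source used here states it. Clusters 2, 6 and 9, which had at least 2 cortical layer types among their 3 leading types, took 30.6% of all spots and 46.6% of the spots with a sparse type. Cluster 13, led by astrocytes, had the highest rate, with a sparse type in 23.1% of its 260 spots (18.1 to 28.7). Cluster 2, led by L5_PT_RSP_ACA, L6_CT_CTX and L5_IT_CTX, followed with 16.4% of 2906 spots (15.1 to 17.8), and cluster 14, led by lateral entorhinal types, with 16.0% of 238 spots (11.6 to 21.3). The intervals of clusters 2 and 14 overlapped, and that of cluster 13 lay above the interval of cluster 2. None of the 58 spots of cluster 17, led by parvalbumin interneurons, held a sparse type, with an interval up to 6.16%.

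**Figure D2:**
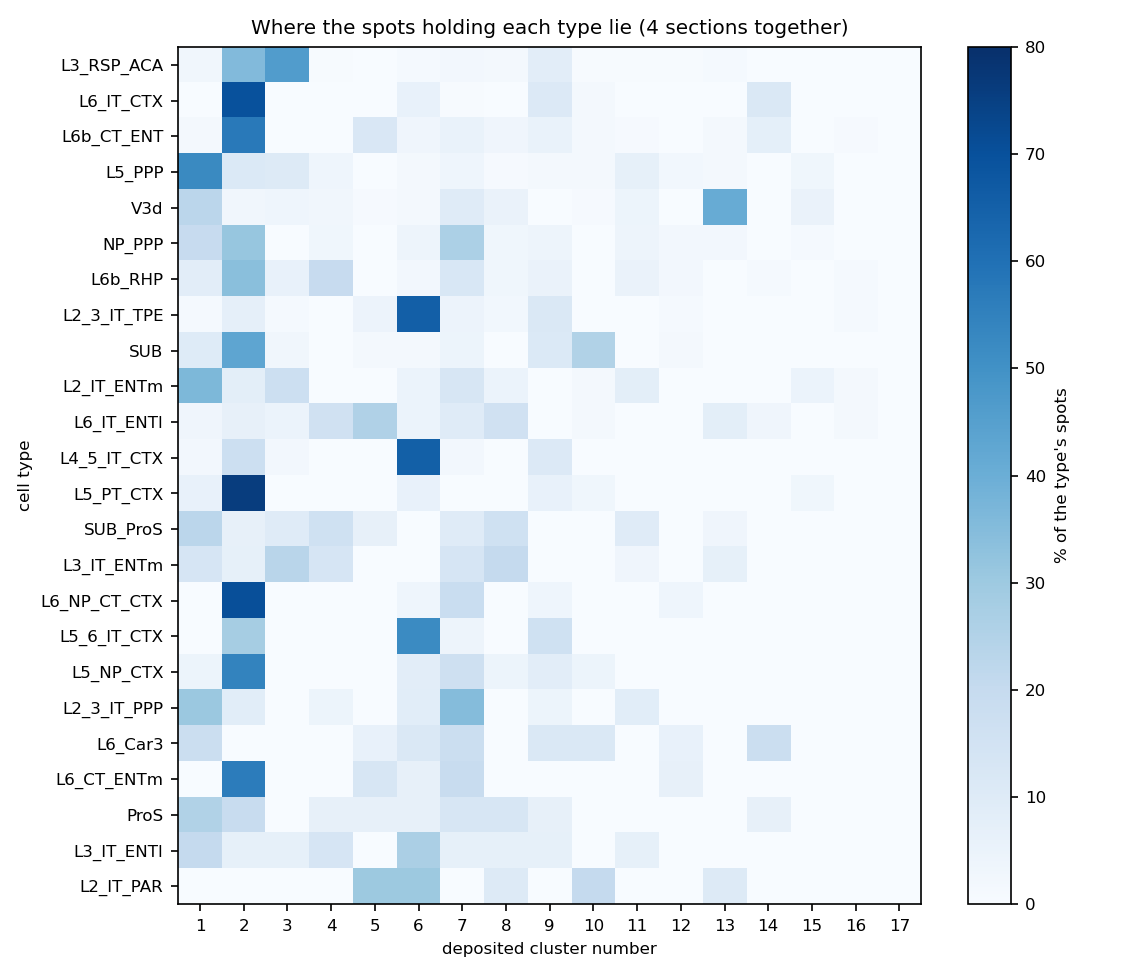
Share of the spots holding each type that lie in each deposited cluster (colour, % of the type's spots, 4 sections together), for the 24 types with at least 10 spots. Cortical types concentrate in clusters 2 and 6, V3d in cluster 13 (40.9%) and L3_RSP_ACA in cluster 3 (46.2%).

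The sections also differed within clusters. In cluster 6, led by the upper-layer types L2_IT_RSP_ACA and L2_3_IT_CTX, the resilient section was set apart. A sparse type was held there by 26.8% of resilient spots (71 of 265, interval 21.6 to 32.6) and 13.2% of control spots (38 of 287, upper bound 17.7). The ketamine-treated section had 8.13% (17 of 209) and the susceptible section 7.04% (15 of 213). The resilient interval overlapped with no other. In cluster 3, led by astrocytes and L4_5_IT_TPE_ENT, the order was different: the control had 17.6% (13.6 to 22.1), the resilient 8.27% (5.69 to 11.5), the susceptible 10.8% and the ketamine-treated section 10%. The control and resilient intervals did not overlap. In cluster 13 the resilient section had a sparse type in 16 of 32 spots (31.9 to 68.1%) and the susceptible section in 17 of 122 (8.33 to 21.4%), with the control (11 of 38) and ketamine-treated section (16 of 68) between. In cluster 1, where oligodendrocytes and astrocytes led, the control was the lowest, at 4.20% (39 of 929 spots, upper bound 5.69) against 7.57% in the resilient section (lower bound 5.91). Mean types kept differed here too: 2.44 (control) and 2.21 (resilient) in cluster 3, and 2.84 (resilient) and 2.12 (susceptible) in cluster 13. In cluster 1 the mean was 2.59 (resilient) and 2.36 (control), with lower means in the susceptible (2.33) and ketamine-treated (2.26) sections. Whether the contrasts within clusters hold at an equal number of types kept was not tested.

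**Figure D3:**
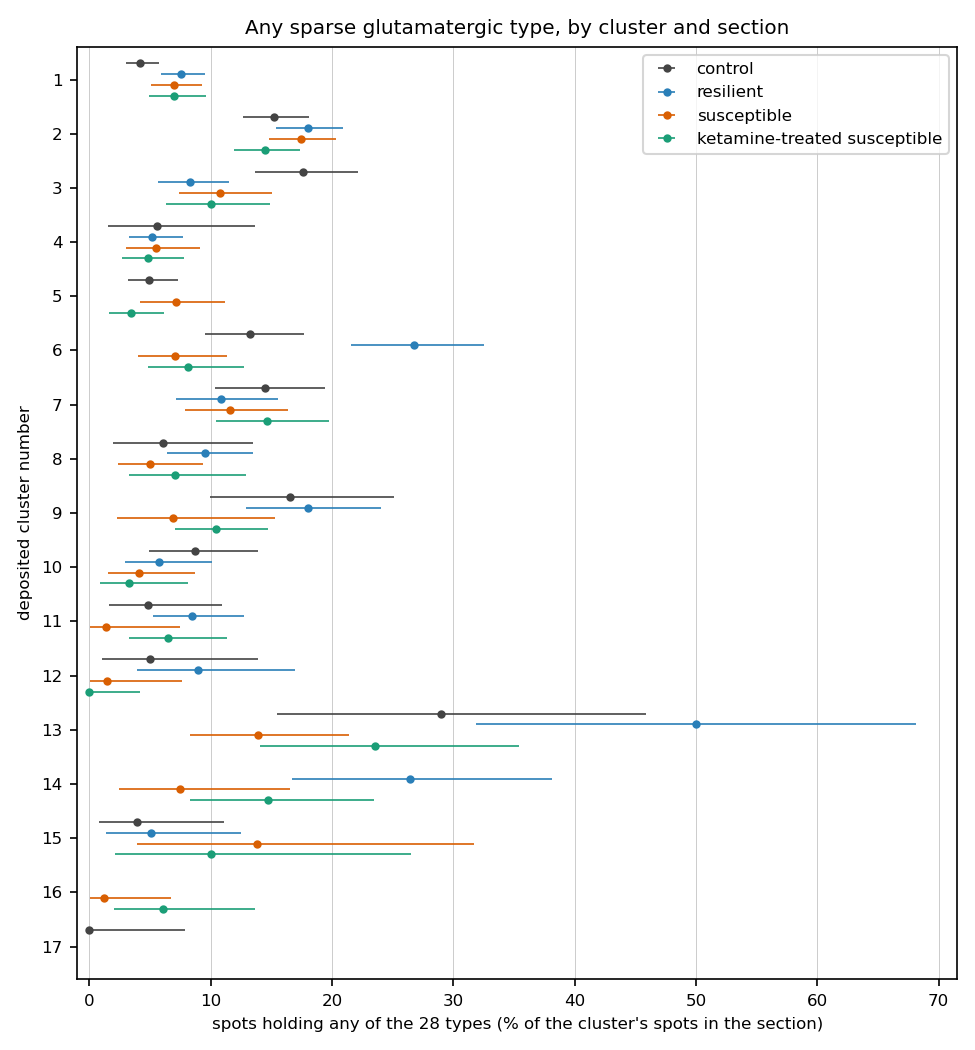
Share of spots holding any of the 28 types (x axis, % of the cluster's spots in the section) by deposited cluster and section; points are shares and bars exact 95% intervals, drawn where a cluster had at least 20 spots in the section. In cluster 6 the resilient section, at 26.8%, lies above the other 3 sections.

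The 7 types named for the cortex lay where cortical layer types led: 85.5% of the 415 spots that held any of them were in clusters 2, 6 and 9. They were held by 2.25% of control, 3.83% of resilient, 2.73% of susceptible and 2.24% of ketamine-treated spots. L2_3_IT_TPE, L4_5_IT_CTX and L5_6_IT_CTX had most of their spots in cluster 6, and the 4 others had most of theirs in cluster 2. L6_IT_CTX, the layer 6 cells that project within the forebrain, was the most frequent of the 7, with 69.7% of its 185 spots in cluster 2. It was held by 35 control, 52 resilient, 60 susceptible and 38 ketamine-treated spots. The susceptible section was the highest, at 1.74% (1.33 to 2.24), and its interval overlapped with the resilient and ketamine-treated ones but not with the control, at 0.938% (0.654 to 1.30). In cluster 2 alone, L6_IT_CTX was in 6.83% of susceptible spots (52 of 761), 3.63% of control, 3.13% of resilient and 4.07% of ketamine-treated spots. The susceptible interval there, 5.15 to 8.86, lay above the resilient one, 2.02 to 4.63, and overlapped with the other 2.

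The L6_IT_CTX spots of the resilient section lay partly elsewhere. In cluster 14, which L2_IT_ENTl and L2_3_IT_ENTl led, it was in 19 of 72 resilient spots (26.4%, 16.7 to 38.1) and in 2 of 67 from the susceptible section (2.99%, 0.364 to 10.4). It was in 0 of 95 ketamine-treated spots, with an interval up to 3.81%. The control had 4 spots in that cluster, none with the type. All 19 resilient spots of cluster 14 that held a sparse type held this one. This pair of type and cluster was singled out after its values were seen. With the 13 clusters that every section filled weighted equally across sections, which leaves clusters 5, 14, 16 and 17 out (equal cluster weights), L6_IT_CTX had a susceptible share 1.92 times the resilient one, against 1.39 times over all spots. The resilient share was 1.33 times the control share over all spots and 0.797 times with those weights, so its direction turned.

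L2_3_IT_TPE, upper-layer cells named for temporal association and neighbouring areas, had 65.5% of its 87 spots in cluster 6. It was held by 47 resilient spots (1.13%, 0.832 to 1.501) and 16 control spots (0.429%, 0.245 to 0.695). The susceptible section had 12 (0.349%, 0.180 to 0.608) and the ketamine-treated section 12 (0.345%, 0.178 to 0.602). The resilient section stood alone, and the other 3 sections had overlapping intervals. The same was seen inside cluster 6, where the type was in 12.8% of resilient spots (34 of 265, 9.05 to 17.5), 4.18% of control (2.18 to 7.19), 2.39% of ketamine-treated (0.781 to 5.49) and 2.82% of susceptible spots (1.04 to 6.03). In 39.1% of its spots it was accompanied by L2_3_IT_CTX, which was in 30.2% of all spots of the same clusters and sections.

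L5_PT_CTX, layer 5 cells that project to the brainstem and spinal cord, had 75.8% of its 33 spots in cluster 2. It was held by 5 control, 20 resilient, 2 susceptible and 6 ketamine-treated spots. The resilient interval, 0.294 to 0.742%, lay above the susceptible one, 0.00704 to 0.210%, and overlapped with the other 2. Its most frequent partner was its retrosplenial counterpart L5_PT_RSP_ACA, in 54.5% of its spots against 43.5% of all spots of the same clusters and sections. L4_5_IT_CTX was held by 11, 21, 6 and 8 spots in the order control, resilient, susceptible and ketamine-treated, and L5_6_IT_CTX by 6, 9, 6 and 4. These 2 middle and deep-layer IT types shared partners. L4_5_IT_TPE_ENT was in 80% of L5_6_IT_CTX spots and 56.5% of L4_5_IT_CTX spots, against 28.4% and 32.6% of all spots of the same clusters and sections. L5_IT_CTX was in 52% and 34.8% of their spots, against 24.4% and 22.5%.

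The near-projecting types of the cortex were held by few spots. L5_NP_CTX was held by 5 control, 12 resilient, 2 susceptible and 5 ketamine-treated spots, with overlapping intervals throughout. Its clearest partner was the near-projecting type of the subiculum, NP_SUB, in 8 of its 24 spots (33.3%) against 3.40% of all spots of the same clusters and sections. L6_NP_CT_CTX was held by 9, 3, 6 and 9 spots in the order control, resilient, susceptible and ketamine-treated, and 70.4% of its 27 spots lay in cluster 2. It was the 1 cortical type of the 7 with its lowest count in the resilient section, at overlapping intervals.

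L3_RSP_ACA, layer 3 cells named for retrosplenial and anterior cingulate cortex, was the most frequent of the 28 types, with 195 spots. It was held by 73 control spots (1.96%, 1.54 to 2.45) and 48 ketamine-treated spots (1.38%, 1.02 to 1.83). The susceptible section had it in 43 (1.25%, 0.905 to 1.68) and the resilient section in 31 (0.746%, 0.507 to 1.06). The control interval lay above the resilient one, and every other pair overlapped. It was found mainly in clusters 3 (46.2%) and 2 (35.4%). In cluster 3 it was in 12.7% of control spots (42 of 330, 9.33 to 16.8) and 3.47% of resilient spots (13 of 375, 1.86 to 5.86), with 7.19% and 7.14% in the susceptible and ketamine-treated sections. In cluster 2 the resilient section was again the lowest, at 1.04% (8 of 766) against 3.21% in the control (23 of 716), with intervals that met at their ends. The high control rate of cluster 3 given above for all 28 types was mostly this type, with 42 of 58 spots. Astrocytes accompanied it in 57.4% of its spots and L4_5_IT_TPE_ENT in 27.7%, against 51.5% and 27.9% of all spots of the same clusters and sections.

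The 6 types named for entorhinal cortex, the gateway between neocortex and hippocampus, lay mostly outside the clusters with lateral entorhinal leading types. Of the 335 spots that held any of them, 15.5% were in clusters 5, 14 and 16, where ENTl types were among the 3 leading types, and these clusters took 9.52% of all spots. They were held by 1.85% of control, 3.30% of resilient (2.77 to 3.89), 1.95% of susceptible and 1.78% of ketamine-treated spots. The resilient interval overlapped with none of the other 3, the highest of which ended at 2.46%.

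L2_IT_ENTm, layer 2 cells named for medial entorhinal cortex, was held by 41 resilient spots (0.987%, 0.709 to 1.34) and 8 control spots (0.214%, 0.0926 to 0.422). The ketamine-treated section had 8 (0.230%, 0.0994 to 0.453) and the susceptible section 6 (0.174%, 0.0640 to 0.379). The resilient section was set apart from the other 3, which overlapped. Of its 63 spots, 1 was in clusters 5, 14 and 16 together. In contrast, 23 were in cluster 1, 11 in cluster 3 and 8 in cluster 7, all led by astrocytes or oligodendrocytes. In cluster 1 the type was in 1 of 929 control, 16 of 885 resilient, 2 of 605 susceptible and 4 of 501 ketamine-treated spots. Parvalbumin interneurons (Pvalb), which are fast-spiking, accompanied it in 23.8% of its spots, against 13.5% of all spots of the same clusters and sections.

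L6b_CT_ENT was the most frequent entorhinal type, with 34 control, 59 resilient, 27 susceptible and 28 ketamine-treated spots. The resilient section was the highest, at 1.42% (1.08 to 1.83), but its interval overlapped with all others. In cluster 2, which held 57.4% of its spots, the resilient section had it in 5.22% of spots (40 of 766, 3.76 to 7.04), against 2.63% of susceptible (1.61 to 4.03), 2.09% of control (1.18 to 3.43) and 1.51% after ketamine (0.726 to 2.76). The resilient interval there overlapped only with the susceptible one. In cluster 14 the type was in 8 of 95 ketamine-treated, 3 of 67 susceptible and 0 of 72 resilient spots, the last with an interval up to 4.99%. Despite its entorhinal name, the type was most often accompanied by the cortical corticothalamic type L6_CT_CTX, in 37.8% of its spots against 17.3% of all spots of the same clusters and sections.

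L6_IT_ENTl, layer 6 cells named for lateral entorhinal cortex, was held by 9 control, 17 resilient, 23 susceptible and 14 ketamine-treated spots. All intervals overlapped. Cluster 5, in which L2_3_IT_ENTl was among the leading types, held 11 of the 23 susceptible spots. There the type was in 11 of 239 susceptible spots (4.60%, 2.32 to 8.09), 2 of 465 control spots (0.430%, 0.0521 to 1.54) and 3 of 293 ketamine-treated spots. The resilient section had 2 spots in cluster 5. L3_IT_ENTm was held by 8, 8, 7 and 7 spots in the order control, resilient, susceptible and ketamine-treated, and vascular and leptomeningeal cells (VLMC) were in 5 of its 30 spots (16.7%), against 2.64% of all spots of the same clusters and sections. L3_IT_ENTl was held by 5, 6, 1 and 3 spots and L6_CT_ENTm by 5, 6, 3 and 2 spots, in the same order.

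The 12 types named for the subiculum, the output structure of the hippocampus, and the neighbouring parahippocampal areas were held by 3.29% of control (2.75 to 3.92), 3.97% of resilient (3.40 to 4.61), 2.90% of susceptible (2.37 to 3.52) and 3.11% of ketamine-treated spots (2.55 to 3.74). All 4 intervals overlapped. Of the 496 spots that held any of the 12, 59.3% were in the clusters led by astrocytes or oligodendrocytes other than cluster 9, which counted as cortical. Those clusters took 58.2% of all spots. L5_PPP was the most frequent, at 37 control, 42 resilient, 24 susceptible and 31 ketamine-treated spots. It lay mainly in cluster 1 (52.2% of 134 spots), and Pvalb was in 28.4% of its spots against 15.5% of all spots of the same clusters and sections. NP_PPP had overlapping intervals in all sections, at 23, 30, 21 and 28 spots, and was divided between cluster 2 (32 spots), the oligodendrocyte-led cluster 7 (27 spots) and cluster 1 (20 spots).

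L6b_RHP, the deepest-layer type of the retrohippocampal region, was held by 38 resilient spots (0.914%, 0.648 to 1.25) and 28 ketamine-treated spots (0.805%, 0.536 to 1.16). The susceptible section had 19 (0.552%, 0.333 to 0.860) and the control 12 (0.321%, 0.166 to 0.561). The control was the lowest, and its interval did not overlap with the resilient one. The other pairs overlapped. The layer 6b type of the cortex, L6b_CTX, was in 24 of its 97 spots (24.7%), against 3.98% of all spots of the same clusters and sections.

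SUB, named for the subiculum itself, was held by 25 control spots (0.670%, 0.434 to 0.987) and 25 resilient spots (0.602%). The susceptible section had 14 (0.407%) and the ketamine-treated section 8 (0.230%, 0.0994 to 0.453). The control was the highest and the ketamine-treated section the lowest, with overlapping intervals. Cluster 10, led by astrocytes with dentate gyrus and CA1 neurons, held 18 of its 72 spots, and cluster 2 held 31. In cluster 10, SUB was in 10 of 173 control spots, 2 of 191 resilient, 3 of 147 susceptible and 3 of 123 ketamine-treated spots. CA1, a partner singled out after its values were seen, was in 9 of the 72 SUB spots against 7.24% of all spots of the same clusters and sections.

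The other subicular and parahippocampal types were rare. In the order control, resilient, susceptible and ketamine-treated, SUB_ProS was held by 8, 12, 7 and 4 spots, L2_3_IT_PPP by 4, 10, 5 and 4, ProS by 2, 5, 7 and 2, and L2_IT_PAR by 4, 2, 3 and 1. Oligodendrocytes (Oligo), the myelin-forming cells, were in 65.2% of L2_3_IT_PPP spots and 41.9% of SUB_ProS spots, against 59.6% and 39.3% of all spots of the same clusters and sections. The 4 rarest types were L2_3_IT_APr (3, 0, 1 and 1 spots), L2_IT_ProS (3, 1, 1 and 0), L6_IT_RHP (2, 1, 0 and 2) and L2_IT_HATA (1, 2, 0 and 0). The interval of a count of 0 reaches 0.0887% of resilient, 0.107% of susceptible and 0.106% of ketamine-treated spots, and says nothing of fractions too small to be deposited.

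The 2 remaining types carry no region in the list used for grouping. V3d had overlapping intervals in all sections, at 30 control, 26 resilient, 30 susceptible and 29 ketamine-treated spots. It was tied to a small cluster: 40.9% of its 115 spots were in cluster 13, which took 1.76% of all spots. There it was in 9 of 38 control spots, 11 of 32 resilient spots, 15 of 122 susceptible spots and 12 of 68 ketamine-treated spots, or 23.7%, 34.4%, 12.3% and 17.6%. All of these intervals overlapped. VLMC accompanied it in 33 of its spots (28.7%), against 9.30% of all spots of the same clusters and sections. L6_Car3, deep-layer cells named for a carbonic anhydrase gene, was held by 3, 4, 3 and 7 spots and was scattered over 8 clusters.

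**Figure D4:**
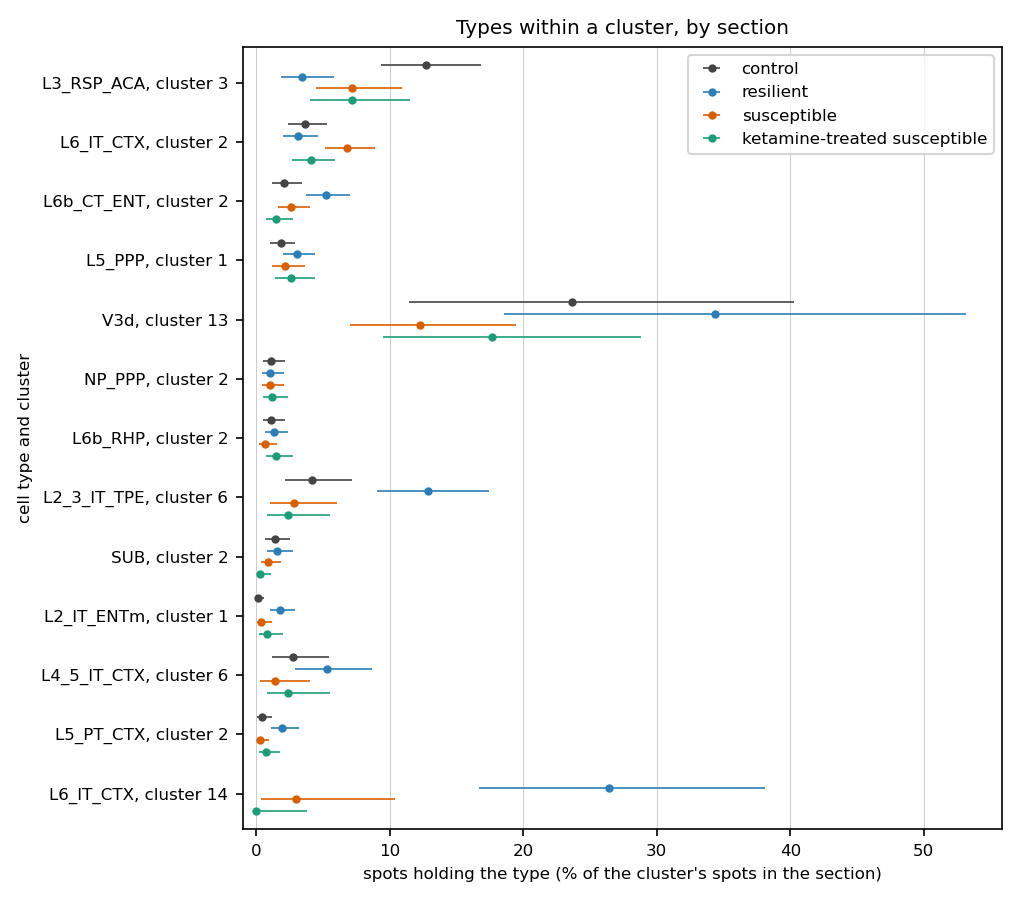
Share of spots holding a type within its main cluster (x axis, % of the cluster's spots in the section) by section, for types with at least 20 spots there, and L6_IT_CTX in cluster 14; points are shares and bars exact 95% intervals, drawn where the section had at least 20 spots in the cluster. L2_3_IT_TPE in cluster 6 (12.8%) and L6_IT_CTX in cluster 14 (26.4%) are highest in the resilient section.

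Across the 19 types with at least 20 spots, the company of other neurons varied widely. For the 7 cortical types and L6b_CT_ENT, between 63.0% and 92% of spots also held one of the 19 other glutamatergic types, against 60.9% of all spots. L6b_RHP (66.0%) and SUB (62.5%) were also above 60.9%. For V3d, L3_IT_ENTm, SUB_ProS, L2_3_IT_PPP and L6_IT_ENTl the share was between 20% and 34.9%. The 60.9% covers all clusters, while 85.5% of the spots with any of the 7 cortical types lay where cortical layer types led. Those clusters took 30.6% of all spots. A share for the same clusters and sections was not computed here, so company beyond that of the clusters was not tested. Oligo was in 2.70% of L6_IT_CTX spots and 4.35% of L4_5_IT_CTX spots, against 31.0% of all spots. It was in 46.1% of NP_PPP, 53.0% of L5_PPP, 56.7% of L3_IT_ENTm and 65.2% of L2_3_IT_PPP spots. All spots of the same clusters and sections gave 9.02% for L6_IT_CTX. For NP_PPP, L5_PPP, L3_IT_ENTm and L2_3_IT_PPP they gave 44.9%, 48.7%, 42.2% and 59.6%, closer to the shares seen than 31.0%. Fractions sum to 1 in a spot, so a type that takes a large share leaves less for partners, and partner shares describe the deposited estimates only. Among pairs of sparse types, the most frequent was L3_RSP_ACA with NP_PPP, which shared 8 spots. NP_PPP was in 4.10% of L3_RSP_ACA spots, against 0.538% of all spots of the same clusters and sections. L3_RSP_ACA was in 7.84% of NP_PPP spots, against 1.03%.

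**Figure D5:**
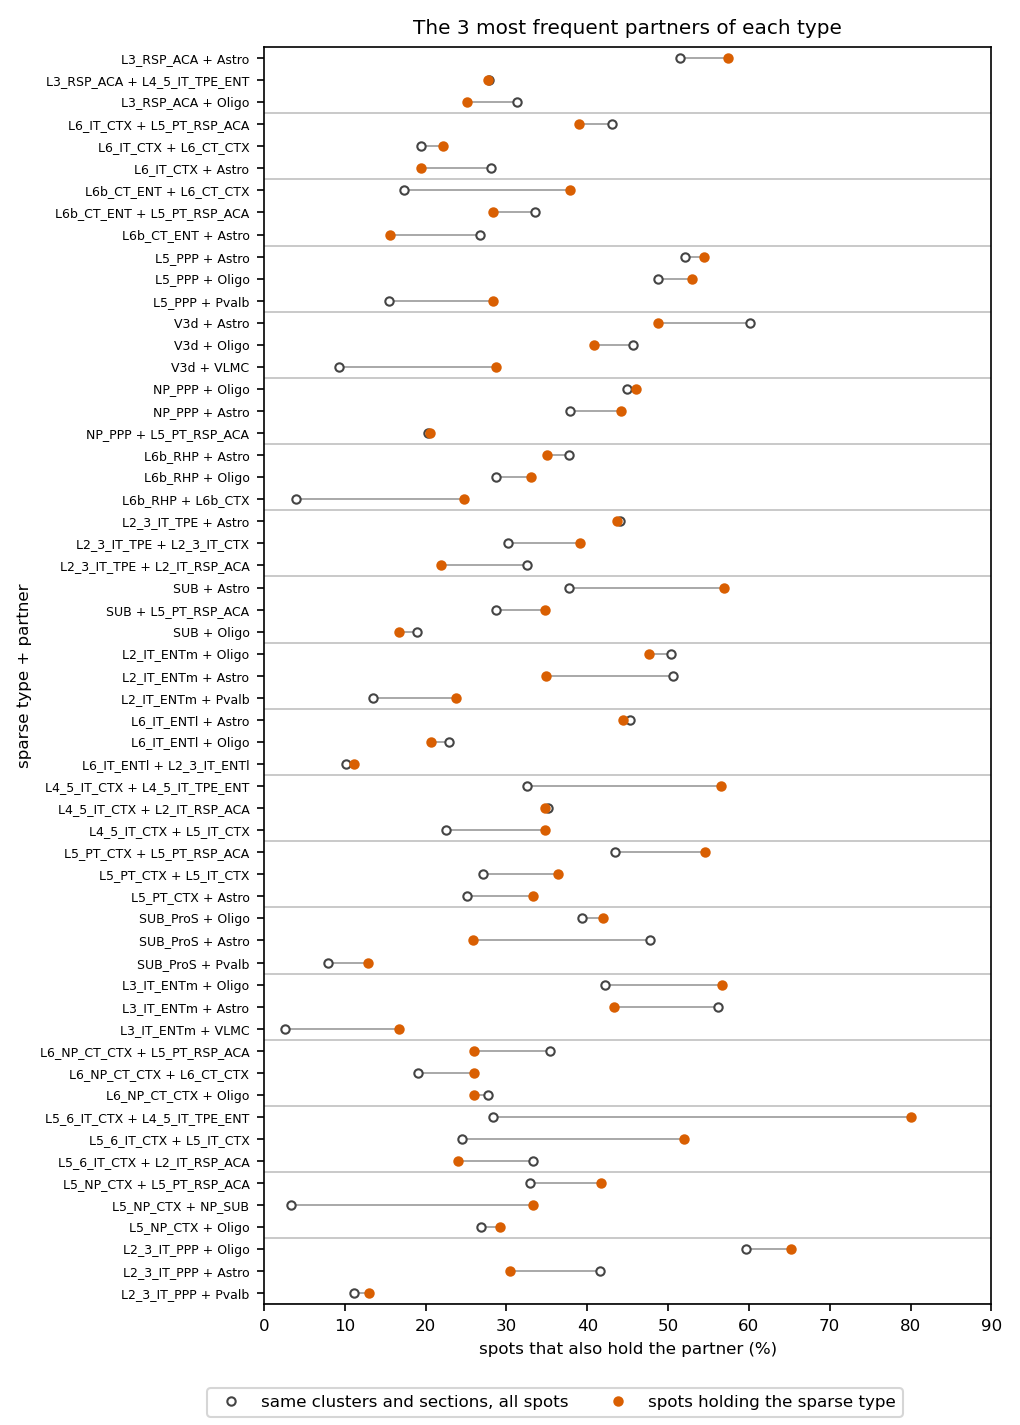
The 3 types most often found in the same spots as each sparse type with at least 20 spots; filled points give the share of the type's spots that hold the partner (x axis, %), open points the share in all spots of the same clusters and sections. The widest gaps include L5_6_IT_CTX with L4_5_IT_TPE_ENT (80% and 28.4%) and L5_NP_CTX with NP_SUB (33.3% and 3.40%).

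In the comparisons below, a type was compared when either section had it in at least 10 spots, and was counted as higher or lower when its share of spots differed by at least 1.5-fold. The same rule was run over all 67 types for a background. A type with under 10 spots in a section was compared only because the other section held it in more spots. The rule therefore leaned the counts and medians for rare types in that direction. Overlap of intervals does not by itself place a ratio within counting error. The resilient against control, susceptible against control and ketamine-treated against control comparisons share the control section, and others share a section too, so they are not independent of each other.

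The resilient mouse, defeated but selected as resilient, was compared with the control. Of 16 sparse types compared, 10 were past 1.5-fold, 9 higher and 1 lower in the resilient section, with a median ratio of 1.63. Over all 53 types compared, 45.3% were past 1.5-fold, 35.8% higher and 9.43% lower, with a median ratio of 1.30. L2_IT_ENTm, L5_PT_CTX, L5_NP_CTX, L2_3_IT_PPP, L6_IT_ENTl and SUB_ProS had 8, 5, 5, 4, 9 and 8 control spots. They were compared only through their resilient counts, so the number higher and the median partly follow from the rule. The intervals did not overlap for 4 of the 16, against 34.0% of all types. These 4 were L2_IT_ENTm (4.60 times the control share), L6b_RHP (2.84 times), L2_3_IT_TPE (2.64 times) and L3_RSP_ACA (control 2.62 times the resilient share). The other types past 1.5-fold were L5_PT_CTX (3.59 times), L2_3_IT_PPP (2.25 times), L5_NP_CTX (2.16 times), L4_5_IT_CTX (1.71 times), L6_IT_ENTl (1.70 times) and L6b_CT_ENT (1.56 times). Among these, the counting interval of the ratio, control over resilient, left out 1 for L5_PT_CTX (0.0816 to 0.764) and L6b_CT_ENT (0.408 to 0.995). It held 1 for the rest of these types. With equal cluster weights L6_IT_ENTl came to 1.45 times and L6b_CT_ENT to 2.39 times the control share. By spots led, where the type had the highest share, L6b_CT_ENT, L4_5_IT_CTX and L2_3_IT_PPP were lower in the resilient section, at ratios of 0.778, 0.898 and 0.898. L5_PT_CTX led 6 resilient and 4 control spots, a ratio of 1.35 that was not past 1.5-fold. L2_IT_ENTm led 7 resilient and 0 control spots, a ratio of at least 2.10 against a floor of 3 spots. By mean fraction the ratio was 7.55 for L2_IT_ENTm, and it was not past 1.5-fold for L2_3_IT_PPP (1.29) and L6b_CT_ENT (1.04).

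The susceptible mouse was compared with the same control. Of 11 sparse types compared, 6 were past 1.5-fold, 3 higher and 3 lower in the susceptible section, with a median ratio of 0.861. Over all 46 types compared, 39.1% were past 1.5-fold, 26.1% were higher and 13.0% lower, with a median ratio of 0.940. L6_IT_ENTl had 9 control spots and L4_5_IT_CTX 6 susceptible spots, so each was compared only through the section where it was higher. L6_IT_CTX, at 1.86 times the control share, was the 1 sparse type whose intervals did not overlap, against 28.3% of all types. L6_IT_ENTl (2.77 times) and L6b_RHP (1.72 times) were also higher, and L3_RSP_ACA, SUB and L4_5_IT_CTX were lower, the control having 1.57, 1.65 and 1.69 times the susceptible share. Among these, the counting interval of the ratio, control over susceptible, left out 1 for L6_IT_ENTl (0.147 to 0.810) and L3_RSP_ACA (1.06 to 2.34). It held 1 for L6b_RHP, SUB and L4_5_IT_CTX. Equal cluster weights, without cluster 5, brought L6_IT_ENTl to 1.10 times and L6b_RHP to 1.38 times the control share. By spots led, L6b_RHP was lower in the susceptible section, at a ratio of 0.723. L3_RSP_ACA was not past 1.5-fold by mean fraction (ratio 0.710) or by spots led (0.759). SUB and L4_5_IT_CTX had ratios of 0.394 and 0.181 by spots led, the latter from 1 susceptible and 6 control spots.

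The susceptible and resilient mice both went through defeat and were told apart by the social interaction test. Of 16 sparse types compared, 10 were past 1.5-fold, 2 higher and 8 lower in the susceptible section, with a median ratio of 0.640. Over all 53 types compared, 47.2% were past 1.5-fold, 11.3% were higher and 35.8% lower, with a median ratio of 0.733. L5_PT_CTX, L5_NP_CTX, L2_IT_ENTm, L4_5_IT_CTX, L2_3_IT_PPP and SUB_ProS had 2, 2, 6, 6, 5 and 7 susceptible spots. They were compared only through their resilient counts, so the number lower and the median partly follow from the rule. Intervals did not overlap for 3 of the 16 (34.0% of all types): the resilient section had 8.28 times the share of L5_PT_CTX (20 against 2 spots, counting interval of the ratio 2.01 to 73.1), 5.66 times that of L2_IT_ENTm and 3.24 times that of L2_3_IT_TPE. For L5_NP_CTX, with 12 against 2 spots, the resilient share was 4.97 times the susceptible one (counting interval 1.11 to 45.7). It was 2.90 times the susceptible share for L4_5_IT_CTX, 1.81 times for L6b_CT_ENT, and 1.66 times each for L2_3_IT_PPP and L6b_RHP. L3_RSP_ACA and L6_IT_ENTl were higher in the susceptible section, at 1.67 and 1.63 times. The counting interval of the ratio, resilient over susceptible, left out 1 for L4_5_IT_CTX (1.13 to 8.78) and L6b_CT_ENT (1.13 to 2.97). It also left out 1 for L3_RSP_ACA (0.364 to 0.970) and held 1 for L2_3_IT_PPP, L6b_RHP and L6_IT_ENTl. With equal cluster weights the L6_IT_ENTl ratio turned to 0.761, and L6b_RHP came to 0.685. No susceptible spot was led by L5_PT_CTX or L5_NP_CTX, against 6 and 5 resilient spots. With a floor of 3 spots those ratios were at most 0.604 and 0.724, the second not past 1.5-fold. By spots led the ratio was 0.345 for L2_IT_ENTm, 0.201 for L4_5_IT_CTX and L6b_RHP, and 2.82 for L3_RSP_ACA. By mean fraction it was 0.277 for L2_IT_ENTm and 0.116 for L5_NP_CTX.

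The ketamine comparison had the saline-treated susceptible mouse as its reference. Of 10 sparse types compared, 3 were past 1.5-fold, all 3 lower in the ketamine-treated section, with a median ratio of 1.01. Over all 44 types compared, 20.5% were past 1.5-fold, 4.55% were higher and 15.9% lower, with a median ratio of 0.997. SUB had 8 ketamine-treated spots and was compared only through its susceptible count. The 3 were L6_IT_CTX, L6_IT_ENTl and SUB, of which the susceptible section had 1.59, 1.66 and 1.77 times the share. No sparse type had intervals that did not overlap, against 9.09% of all types. The counting interval of the ratio, susceptible over ketamine-treated, was 1.04 to 2.46 for L6_IT_CTX, without 1. It was 0.818 to 3.49 for L6_IT_ENTl and 0.692 to 4.86 for SUB, both with 1. With equal cluster weights, L6_IT_ENTl stood at a ratio of 0.873. SUB led 3 ketamine-treated and 4 susceptible spots, a ratio of 0.743 that was not past 1.5-fold, and L6_IT_CTX had a ratio of 0.358 by spots led. The 3 types whose resilient and susceptible intervals did not overlap, L2_3_IT_TPE, L2_IT_ENTm and L5_PT_CTX, were in 12, 8 and 6 ketamine-treated spots and 12, 6 and 2 susceptible spots.

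Between the ketamine-treated and control sections, 3 of 11 sparse types were past 1.5-fold, 2 higher and 1 lower after ketamine, with a median ratio of 0.8995. Over all 46 types compared, 26.1% were past 1.5-fold, 15.2% were higher and 10.9% lower, with a median ratio of 0.979. SUB and L4_5_IT_CTX had 8 ketamine-treated spots each, and L6_IT_ENTl had 9 control spots. Each was compared only through the section where it was higher. L6b_RHP was 2.51 times and L6_IT_ENTl 1.67 times the control share, and SUB was lower, the control having 2.91 times the ketamine-treated share. Intervals overlapped for each of the 11, while 17.4% of all types had intervals that did not. The counting interval of the ratio, control over ketamine-treated, was 1.27 to 7.47 for SUB and 0.185 to 0.811 for L6b_RHP, both without 1. For L6_IT_ENTl it was 0.229 to 1.49. With equal cluster weights L6_IT_ENTl was at 0.964 of the control share, and by mean fraction at 1.44 times.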

How the data were processed

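Spatial transcriptomics on barcoded slides was run on frozen mouse brain sections, per the labels' protocols. For every spot the authors deposited its cluster and, as a fraction, its estimated content of 67 cell types or of unknown. Per the submitters' processing notes, mm10 was the build. The method behind the fractions and clusters is not given in the sources used here. Gene counts, spot positions and the deposited t-SNE coordinates were not used here, so depth is unknown and precision rests on the number of spots. Fractions are relative, so a higher share of 1 type lowers the others, and a spot at 0 can hold a smaller share. The 4 sections share slide barcodes by design (2503 of 4718 were in all 4), so barcodes identify no cell.

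The 28 members and their grouping by name were chosen with earlier results of these data known. Shares of spots were computed in Python 3.11.15 with pandas 2.3.3, exact intervals with scipy 1.17.1. In a ratio, a share of 0 was given a floor of 3 spots. Types were named as follows: all members, by count; in a comparison, those past 1.5-fold with at least 10 spots in the higher section; and the 3 most frequent partners of types with at least 20 spots. Equal cluster weights took the 13 clusters that had 20 or more spots in each section, at their mean proportion. Alternatives were a minimum fraction of 15% or 20%, mean fractions, spots led, unknown spots left out, minimums of 5 or 20 spots and a fold of 2. The calling rule and the weights were run on simulated data with independent spots and no differences between mice or sections. These runs say nothing of such differences.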

Additional observations from a re-analysis of the deposited data

How the results depend on the processing

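No paired analysis was possible because each group has 1 section, and for the same reason no replicate could be left out. The share of spots with any sparse type kept its order of resilient, control, susceptible, ketamine-treated at a minimum fraction of 20% of the spot, at 10.3%, 8.49%, 8.45% and 8.14%. With an equal mix of spots by number of types kept, an alternative chosen after seeing the data, the susceptible section moved to 10.7%. The counts of types past 1.5-fold moved as follows. For susceptible against control, 6 became 11 with a minimum of 5 spots and 1 at a fold of 2. For susceptible against resilient, 10 became 5 at a fold of 2. For ketamine-treated against susceptible, 3 became 5 by spots led, 9 with a minimum of 5 spots and 0 at a fold of 2. For ketamine-treated against control, 3 became 6 by spots led and 7 with a minimum of 5 spots. For resilient against control, no alternative run moved the count of 10 by over 1.5 times. A minimum of 5 spots also brings more types into a comparison. The share past the threshold over all types is not given at these settings. These counts therefore show only how far the rule sets the number, and are no result about the sparse types. Of 128 recomputed fold values of single types, 109 kept their direction and stayed past 1.5-fold, 13 kept their direction only and 6 reversed. The 109 include all 32 values with unknown spots left out, a change of the spot totals only that could hardly move a fold. The others that stayed were 28 by mean fraction, 25 with equal cluster weights and 24 by spots led, each of 32. The reversed ones by spots led were L6b_RHP in susceptible against control (0.723) and L2_3_IT_PPP (0.898), L4_5_IT_CTX (0.898) and L6b_CT_ENT (0.778) in resilient against control. L6_IT_ENTl reversed with equal cluster weights, in susceptible against resilient (0.761) and ketamine-treated against control (0.964). The cause of the reversals by spots led was not tested.

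Partner ratios depended on the reference. Set against all spots of the same clusters in place of all spots of the section, 14 of 57 ratios crossed 1. They became 0.671 for L2_IT_RSP_ACA with L2_3_IT_TPE, 0.988 with L4_5_IT_CTX and 0.720 with L5_6_IT_CTX, and 0.903, 0.733 and 0.846 for L5_PT_RSP_ACA with L6_IT_CTX, L6_NP_CT_CTX and L6b_CT_ENT. They became 0.993 for L4_5_IT_TPE_ENT with L3_RSP_ACA, 0.945, 1.09 and 0.896 for Oligo with L2_IT_ENTm, L5_NP_CTX and V3d, and 1.33, 0.982, 1.17 and 0.811 for Astro with L5_PT_CTX, L6_IT_ENTl, NP_PPP and V3d.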
